A study of Mus musculus with 12 samples.

Results

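Ribosomal protein (RP) genes were taken from the gene expression count files by symbol alone: Rpl or Rps, then a number, with at most 1 of the letters a, x, y, l or p, further digits and a final l, and without "-ps". The rule found 80 of the 32285 genes in the files, 49 of the large ribosomal subunit (Rpl) and 31 of the small subunit (Rps), and it used no measured value. It keeps paralogs such as Rps27l and leaves out ribosomal proteins whose symbols are built differently, such as Rplp0, Rplp1, Rplp2, Rpsa and Fau. These 5 and Rack1, a scaffold protein bound to the small subunit, are described beside the members.

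A ribosome joins a small subunit, which reads the mRNA, to a large subunit, which forms the peptide bonds. Each subunit is built in the nucleolus from ribosomal RNA and from proteins that are mostly present in a single copy, so most cells keep RP mRNAs in step with each other. Many RP mRNAs begin with a short run of C and T (U in the RNA), the terminal oligopyrimidine motif, through which the mTOR pathway sets how much of the mRNA is translated. RP mRNAs are among the most abundant mRNAs of most cells, and lymphocytes are known for a large share of them in single-cell data.

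The windows from 10 bases before to 20 after the annotated transcript start are shown for the members on which the results below turn, because this is where the oligopyrimidine run lies. They are from RefSeq on GRCm38.p6, read 5′ to 3′ on the strand of the gene, and the capitals mark the longest run of only C and T. The first 4 are some of the members that stood highest in lymphocytes, and the next 2 are paralogs that moved against the others. The last 3 are members whose share of the RP transcripts differed between libraries.
Rps27 (chr3:90213629-90213658, minus strand): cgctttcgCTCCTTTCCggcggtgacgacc
Rps15a (chr7:118116128-118116157, minus strand): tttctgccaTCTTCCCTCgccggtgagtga
Rps24 (chr14:24490668-24490697, plus strand): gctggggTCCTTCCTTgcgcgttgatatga
Rpl12 (chr2:32961702-32961731, plus strand): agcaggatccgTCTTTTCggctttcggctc
Rps27l (chr9:66946076-66946105, plus strand): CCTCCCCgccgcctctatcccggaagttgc
Rpl7l1 (chr17:46782637-46782666, minus strand): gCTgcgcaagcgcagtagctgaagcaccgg
Rps12 (chr10:23787190-23787219, minus strand): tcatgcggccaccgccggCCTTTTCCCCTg
Rps28 (chr17:33824543-33824572, minus strand): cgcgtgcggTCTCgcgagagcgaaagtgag
Rpl38 (chr11:114668570-114668599, plus strand): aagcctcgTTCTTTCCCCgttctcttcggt

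A promoter entry was at hand for 61 of the 80 members. The longest run of C and T in this window had a median of 6 bases over these 61 members and of 4 over 27025 promoters of all genes, and a run of at least 8 bases stood in 32.8% of the member windows against 11.2% of all. From 250 bases before to 50 after the start, on either strand, the letters CCGGAAG (a binding motif of ETS factors such as GABPA) stood in 37.7% of the member promoters against 9.12% of all. The letters GGGCGG (the core of the GC box) stood in 59.0% against 35.9%, and CTTTCC in 47.5% against 26.3%. AAGATGGC, the core of the YY1 motif, stood in 8.20% against 2.88%, and TATAAA in 8.20% against 14.2%. Among the windows printed above, the 4 lymphocyte-high members carry runs of 7 to 9 bases and Rpl7l1 a run of 2. Rps27l carries a run of 7 that begins at the window's first base. Other members among the highest in T or B cells had shorter runs, with 5 bases in Rps7, 4 in Rps19 and 6 in Rps13. Whether the length of the run goes with the level in lymphocytes was not tested. These matches describe letters, not binding.

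The samples were aortas of male C57BL/6J mice that the labels and methods give as ApoE-/- in all 4 groups, 8 weeks old at the start and followed for 24 weeks. Mice labelled Healthy had a normal diet and saline. The AS (atherosclerosis) group had a diet with 1% cholesterol and 10% fat and saline. The MTZ-treated group had this diet, saline first and then 25 mg/kg methazolamide (MTZ), an inhibitor of carbonic anhydrases, for the last 12 weeks, and the MTZ-preventive group had the diet with MTZ for all 24 weeks, both by gavage on alternate days. Each group was 1 droplet library of 6 pooled aortas, so the animals cannot be told apart and a condition cannot be told apart from its library. Levels are in CPM, the UMIs of a gene per 1e6 UMIs of the cells taken, such as a class in a library. Apoe went against the label of the library labelled Healthy. Over all kept cells it was at 686 CPM there, against 8.56 to 12.7 CPM in the other 3 libraries. The group name is therefore used only as a label.

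After the cell limits and removal of called doublets, 34263 cells were kept, 2160 in the AS library and 6796 to 14186 in the others, with a median of 1299 to 1930 UMIs per cell. Kept were 2160 of 6908 deposited barcodes in AS and 6796 of 20938 in MTZ-treated. In the library labelled Healthy 11121 of 21857 were kept, and in MTZ-preventive 14186 of 23963. The kept cells of the AS library held 3746690 UMIs and those of the others 15249228 to 33627860. Pairs of libraries shared 24 to 233 kept barcodes. Cells were assigned to 9 classes by 12 marker genes each, none of them an RP gene, and a cell joined a class with at least 3 of its markers detected and at least 2 more than of any other class. Of the kept cells, 25228 were gated, 5189 of them at exactly 3 markers or a lead of exactly 2. In the classes used, with at least 20 cells, the median cell held 4 to 8 of its own markers and 0 to 3 of the next class, and all 12 markers of each class were detected. T-gated cells also held natural killer (NK) genes. By the test described below, 6 of the 6 NK genes tested, of 8 listed, were higher there than in the other classes, against 28.3% of all genes. Ncr1 and Klrd1 were among the 6, so T cells below means T and NK cells.

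The share of UMIs that came from RP genes separated lymphocytes from the cells of the vessel wall. In T-gated cells the share was 33.7% in the library labelled Healthy, 28.2% in the MTZ-treated and 32.4% in the MTZ-preventive library. In B-gated cells it was 26.4%, 31.1% and 26.6% in the same order. Both classes had too few cells in the AS library for a value, with 14 B-gated and 3 T-gated cells. No B or T value came near the range of the wall cells, whose highest value was 16.9%.

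In endothelial cells, which line the vessel, the library labelled Healthy had a share of 13.4%, AS 12.8%, MTZ-treated 16.7% and MTZ-preventive 14.4%. In fibroblasts it was 12.8%, 13.3%, 15.3% and 16.9%, and in smooth muscle cells 9.85%, 10.2%, 11.7% and 11.0%, in the same order. Over cells of all depths, smooth muscle cells were thus lowest of these 3 wall classes in each of the 4 libraries, while endothelial cells and fibroblasts traded places.

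**Figure D1:**
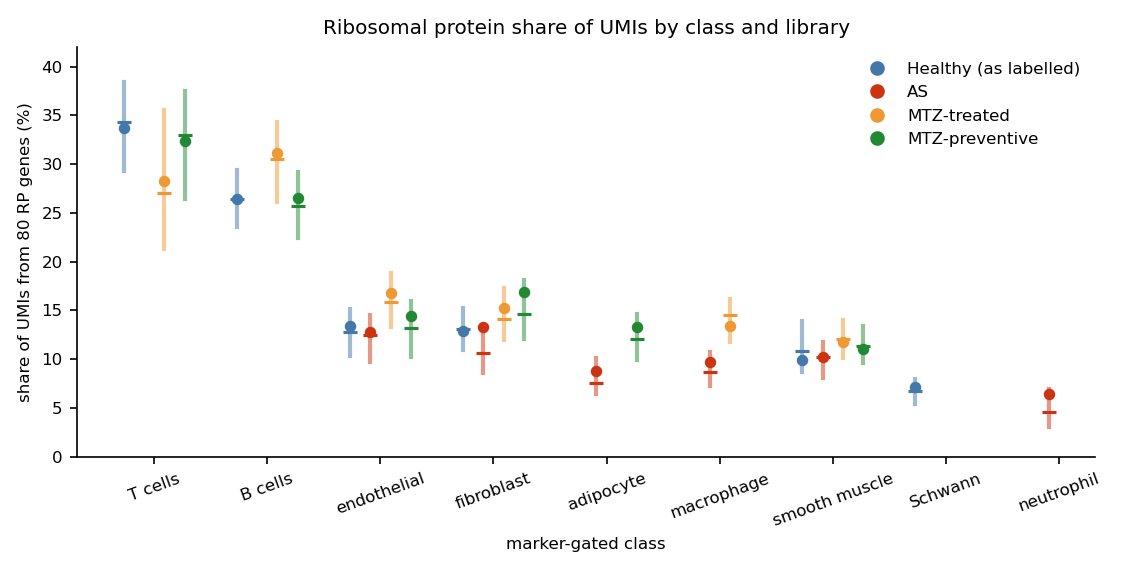
Share of UMIs from the 80 RP genes in percent (y axis) for each marker-gated class (x axis), with 1 point per library for the pooled UMIs, a dash for the median cell and a bar from the lower to the upper quartile of cells. T and B points lie between 26.4% and 33.7%, and the points of endothelial cells, fibroblasts and smooth muscle cells between 9.85% and 16.9%.

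Over libraries, the mean share was 31.4% ± 2.83 (SD, n = 3) in T cells, 28.0% ± 2.67 (SD, n = 3) in B cells, 14.3% ± 1.74 (SD, n = 4) in endothelial cells, 14.6% ± 1.87 (SD, n = 4) in fibroblasts and 10.7% ± 0.829 (SD, n = 4) in smooth muscle cells. B cells were above endothelial cells by 12.1 to 14.4 percentage points in 3 of 3 libraries, and T cells by 11.5 to 20.2 points in 3 of 3. An exact paired permutation test over libraries (two-sided) gave p = 0.25 for each, the smallest that 3 libraries allow. Endothelial cells were above smooth muscle cells by 2.54 to 5.02 points and fibroblasts by 2.97 to 5.91 points in 4 of 4 libraries, each with an exact permutation p = 0.13 after rounding, the smallest that 4 libraries allow. The order of T and B cells (B higher in 1 of 3 libraries) and of endothelial cells and fibroblasts (endothelial higher in 2 of 4) did not hold across libraries.

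The smaller classes had values in 1 or 2 libraries only. Macrophages were at 9.73% in AS and 13.4% in MTZ-treated, and cells with adipocyte markers at 8.77% in AS and 13.3% in MTZ-preventive. Schwann cells, which wrap peripheral nerves, were at 7.11% in the library labelled Healthy (172 cells), and neutrophils at 6.41% in AS (34 cells), the lowest value of all classes with at least 20 cells. Barcodes with 1000 UMIs or fewer, which were not kept, were at 10.0% to 15.4%.

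The members were then tested one by one. Counts were summed per class and library, which gave 18 sums over 5 classes, and each class was compared with the mean of the other 4 in 1 fit that kept the library as a block (edgeR's quasi-likelihood test, Benjamini-Hochberg adjustment over 13174 genes, threshold 0.05). Each class also enters the mean that the other classes are set against, so the contrasts of the 5 classes are not independent. A gene that is high in T and B cells alone comes out low in the wall classes, and the reverse. The shares of all genes given below are not matched to the members in level. The filter on low counts passed 77 of the 80 members. Of the other 3, Rpl10l, known as testis-enriched, had no UMI in the kept cells of any library, which allows up to 0.0892 CPM in the deepest library and 0.801 CPM in AS. Rpl3l, a paralog of striated muscle, had 11 UMIs and Rpl39l 34 UMIs over all kept cells.

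In T cells 75 of the 77 members were higher and 2 lower, where 28.3% of all genes were higher and 27.8% lower. The median member was at a log2 fold change of 1.27 and the median gene at -0.05. The furthest up were Rpl12 (1.87), a protein at the base of the stalk that recruits elongation factors, Rps15a (1.83), Rps7 (1.64), Rps24 (1.63) and Rps27 (1.61). Among those that rose least were Rpl41 (0.65), the shortest ribosomal protein, and Rpl10 (0.59), which joins the large subunit late.

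In B cells 69 members were higher and 1 lower, against 30.9% and 31.4% of all genes, with medians of 0.84 for the members and -0.09 for all genes. Rps27 led (1.52), a zinc-finger protein of the small subunit, followed by Rps15a (1.26), Rps19 (1.18) and Rps13 (1.17). The called members that rose least were Rpl24 (0.57), Rps14 (0.55), Rpl31 (0.54) and Rpl22l1 (0.50).

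Smooth muscle cells showed the reverse, with 74 members lower and 1 higher, against 25.9% and 32.8% of all genes. The median member was at -1.05 and the median gene at 0.04. Rps15a (-1.41), Rps24 (-1.37), Rps27 (-1.37) and Rps20 (-1.33) were among the lowest, and among the called members Rpl41 (-0.41), Rps25 (-0.50), Rps15 (-0.52) and Rpl22l1 (-0.59) fell least.

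In endothelial cells 69 members were lower and 2 higher, against 23.0% and 25.9% of all genes, with medians of -0.65 and -0.06. Rpl12 (-1.10), Rps15a (-1.03), Rpl10a (-1.0), Rps26 (-0.97) and Rpl39 (-0.96), a protein of the peptide exit tunnel, were lowest. Rpl29 (-0.42), Rpl23a (-0.39) and Rpl10 (-0.39) fell least. Without the MTZ-preventive library the count of lower members was 33. In AS, which had no B or T sum, endothelial cells were set against 2 wall classes only, and there 53 of the 69 lower members lay above these, while in each of the other 3 libraries 68 or 69 lay below the other classes.

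In fibroblasts 46 members were lower and 1 higher, against 27.4% and 31.9% of all genes, with medians of -0.42 and -0.01. Rps27 (-0.96), Rps3 (-0.72), Rps29 (-0.67), Rps7 (-0.65) and Rps24 (-0.65) were lowest, and Rpl22 (-0.40), Rpl17 (-0.40), Rpl7 (-0.38) and Rpl4 (-0.36) were nearest to 0 among the called ones. In AS, again against 2 wall classes only, 38 of these 46 lay above the other classes, while all 46 lay below them in the other 3 libraries. This count moved most with the setting: it was 21 with at least 4 markers per cell, 14 without the library labelled Healthy, 24 without AS and 12 without MTZ-preventive. With total counts alone in place of trimmed mean of M values (TMM) factors, the median gene shifted to -0.47 in T cells, -0.39 in B cells, 0.27 in endothelial cells, 0.14 in fibroblasts and 0.26 in smooth muscle cells, and the medians of the members were 0.91, 0.69, -0.39, -0.34 and -0.89.

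**Figure D2:**
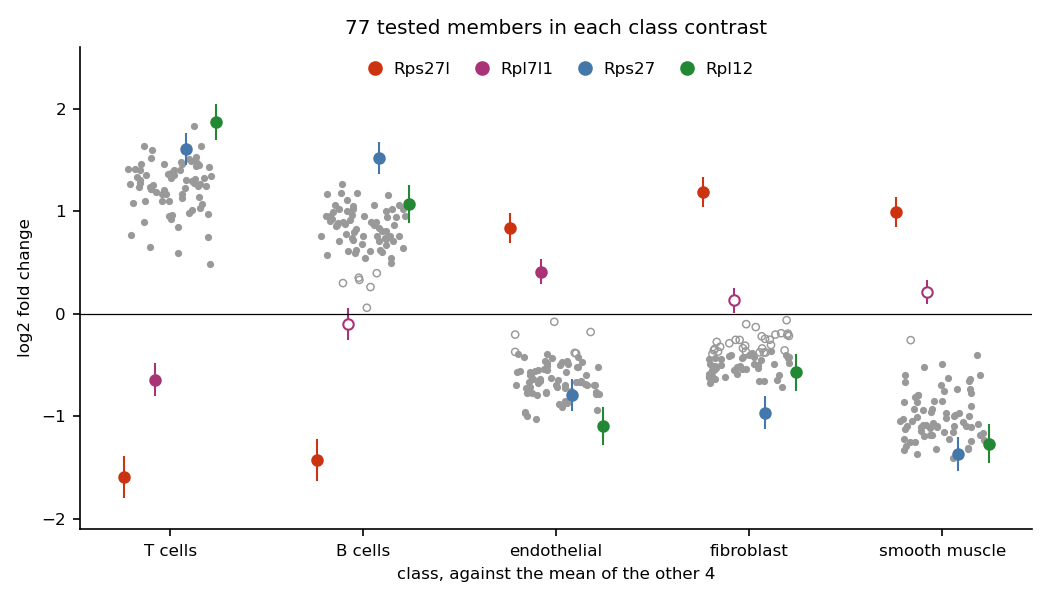
Log2 fold change (y axis) of the 77 tested members in each class against the mean of the other 4 classes (x axis). Filled points passed an adjusted p of 0.05 and open points did not, bars on the 4 named members are standard errors, and Rps27l sits at -1.59 and -1.43 in T and B cells and at 0.83 to 1.19 in the wall classes, opposite to the cloud of members.

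Rps27l was called opposite to the majority of members in each of the 5 contrasts. It encodes a close relative of the small subunit protein Rps27 and is known as a target of p53. Its level was 34.1, 132 and 48.2 CPM in T cells and 44.6, 52.2 and 78.8 CPM in B cells of the libraries labelled Healthy, MTZ-treated and MTZ-preventive. In endothelial cells it was 284, 310, 406 and 279 CPM, in fibroblasts 256, 407, 454 and 307 CPM, and in smooth muscle cells 280, 332, 435 and 276 CPM, in the order labelled Healthy, AS, MTZ-treated and MTZ-preventive. No lymphocyte value overlapped with a wall value, although the T value of the MTZ-treated library rests on 35 UMIs and its B value on 6 UMIs.

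The fit gave Rps27l a log2 fold change of -1.59 (SE 0.206) in T cells and -1.43 (SE 0.206) in B cells, below the other classes in 3 of 3 libraries each, with adjusted p = 1.75e-06 and 5.98e-06 by edgeR's quasi-likelihood test. In fibroblasts it was 1.19 (SE 0.146), above the others in 4 of 4 libraries, with adjusted p = 7.78e-07 in the same test. In smooth muscle cells it was 0.99 (SE 0.147) and in endothelial cells 0.83 (SE 0.148), above the others in 3 of 4 libraries each, with adjusted p = 8.17e-06 and 9.08e-05 by edgeR. All 5 of these calls passed the threshold under each of the 13 alternative settings. The 5 calls are not independent, since low values in T and B cells alone raise the contrasts of the wall classes.

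Rps27 itself moved the other way. It was at 6741, 5165 and 4840 CPM in T cells and 6781, 6137 and 4851 CPM in B cells of the libraries labelled Healthy, MTZ-treated and MTZ-preventive. In endothelial cells it was at 2136, 2053, 2279 and 1837 CPM, in fibroblasts at 1917, 1718, 1633 and 1570 CPM, and in smooth muscle cells at 1464, 1591, 1427 and 1228 CPM, with AS second in each list. Again the lymphocyte and wall values did not overlap.

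**Figure D3:**
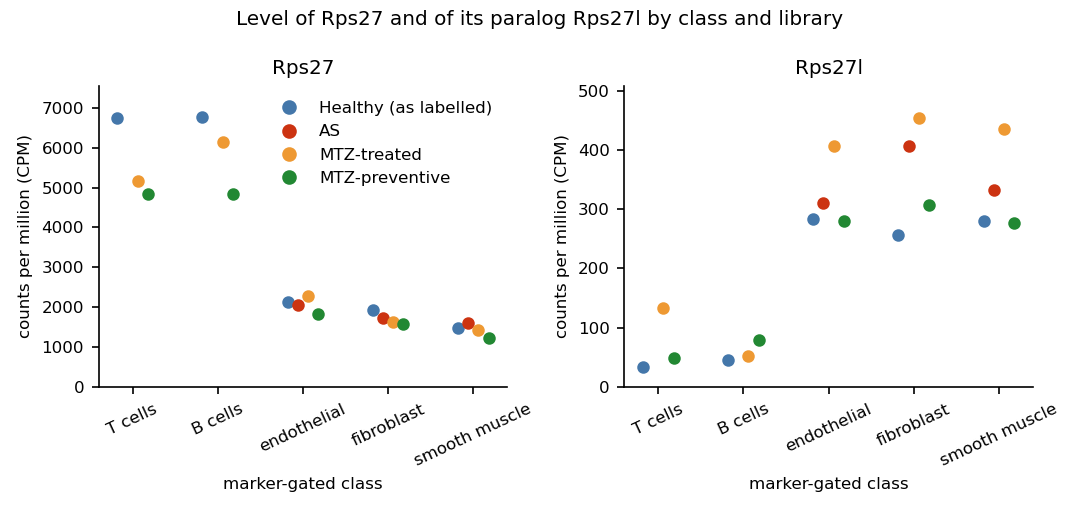
Level in CPM (y axis, each panel on its own scale from 0) of Rps27 and Rps27l by class (x axis), with 1 point per library. Rps27 lies at 4840 CPM or more in lymphocytes and at 2279 CPM or less in wall cells, while Rps27l lies at 132 CPM or less in lymphocytes and at 256 CPM or more in wall cells.

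The other measured paralogs differed from each other. Rpl7l1, a relative of Rpl7, was at 17.9 to 19.5 CPM in T cells, 17.4 to 28.0 CPM in B cells and 29.6 to 53.2 CPM in the 3 wall classes, and it was lower in T cells (-0.64, below the others in 3 of 3 libraries) and higher in endothelial cells (0.41, above in 4 of 4), with adjusted p = 0.00187 and 0.00847 by edgeR's quasi-likelihood test. Rpl7 was higher in T cells (0.95) and B cells (0.76) and lower in smooth muscle cells (-0.90). Both Rpl7l1 calls missed the threshold in 1 of the 13 alternative settings each. The lowest B value of Rpl7l1, that of MTZ-treated, lies below the 26.1 CPM that 3 UMIs would give in that sum. In T cells of MTZ-treated 3 UMIs would give 11.3 CPM, so the Rpl7l1 value there also rests on few UMIs.

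Rpl22l1, which can stand in for Rpl22 where that protein is missing, went with the majority. It was higher in T cells (1.10) as Rpl22 was (1.17), lower in smooth muscle cells (-0.59 against -1.05 for Rpl22) and lower in endothelial cells (-0.94 against -0.52). In fibroblasts Rpl22l1 was at -0.06, which did not pass, and Rpl22 at -0.40, which did. Rpl36al was higher in T cells (0.89) and B cells (0.61), like Rpl36a (1.23 and 0.71). Reads that match a paralog or a processed pseudogene equally well cannot be given to 1 gene, so the counts of near-identical copies are uncertain.

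The pattern of each member over the 18 sums was compared with the RP share, which includes the member itself. Both were on a log2 scale and centred within each library, so the values describe differences between classes and not between libraries. Pearson's r was -0.93 for Rps27l, -0.86 for Rpl7l1 and 0.67 for Rpl41. The 10 most alike of 2617 genes outside the rule included Rpl9-ps6 (0.99), Rack1, Rpsa, Fau, Zfas1, Gas5, Eef1b2, Snhg12 and Gm10076 (0.96). The sums of 1 library share its depth and those of 1 class share its cells, so these values are a description.

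The 6 genes with other symbols followed the members. All 6 were higher in T cells (median 1.41) and in B cells (0.68), by edgeR at an adjusted p under 0.05. By the same test all 6 were lower in endothelial cells (-0.71) and smooth muscle cells (-1.15). Of all genes, 28.3% were higher in T cells and 30.9% in B cells. In endothelial cells 23.0% of all genes were lower, and in smooth muscle cells 25.9%. In B cells Fau (1.42), which is made fused to a ubiquitin-like protein, and Rpsa (1.09), also called the laminin receptor, stood highest, and the stalk proteins Rplp0 (0.55) and Rplp1 (0.46) lowest. In fibroblasts 2 of the 6 (33.3%, against 27.4% of all genes) were lower, namely Fau (-0.76) and Rplp2 (-0.57).

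Genes that serve the ribosome were counted from chosen lists, which are not whole families and were made with earlier results of these data known. Of the 22 genes listed as translation factors, 20 were higher in T cells and 14 in B cells (90.9% and 63.6%, against 28.3% and 30.9% of all genes). In endothelial cells, fibroblasts and smooth muscle cells 12, 13 and 15 were lower (54.5%, 59.1% and 68.2%, against 23.0%, 27.4% and 25.9%). None was called in the opposite direction. Pabpc1, which binds the poly(A) tail, was at 1.60 in T cells and -0.91 in smooth muscle cells, and Eef1b2, an exchange factor for elongation, at 1.49 and -1.13. Eif3l, a subunit of initiation factor eIF3, did not pass in T cells (-0.02) or smooth muscle cells (-0.13).

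Of 33 genes for ribosome assembly, 22 were higher and 1 lower in T cells (66.7% and 3.03%, against 28.3% and 27.8% of all genes). In B cells 25 were higher (75.8%, against 30.9%). In T cells Nop56 (1.74), Npm1 (1.62) and Tcof1 (1.5) led, all nucleolar proteins, and Nop10 (-0.45) was the one lower. The same list had 20 lower genes in endothelial cells, 18 in fibroblasts and 21 in smooth muscle cells, with 0, 1 and 1 higher. The lower ones made up 60.6%, 54.5% and 63.6%, against 23.0%, 27.4% and 25.9% of all genes. Of all genes 25.9%, 31.9% and 32.8% were higher in these classes. Small nucleolar RNAs guide modification of ribosomal RNA. Of 10 of their host genes, 9 were higher in T cells and 7 in B cells, against 28.3% and 30.9% of all genes. Snhg15 was at 2.36 and Snhg1 at 2.27 in T cells. In endothelial cells, fibroblasts and smooth muscle cells 9, 7 and 7 were lower, against 23.0%, 27.4% and 25.9% of all genes.

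The ribosome of the mitochondrion is built from other genes. Of 78 genes for its proteins, 6 were higher and 30 lower in B cells (7.69% and 38.5%, against 30.9% and 31.4% of all genes). In T cells 20 were higher and 14 lower (25.6% and 17.9%, against 28.3% and 27.8%), and in smooth muscle cells 32 and 8 (41.0% and 10.3%, against 32.8% and 25.9%). Mrpl27 was at -1.86 in B cells, 1.10 in fibroblasts and 1.01 in smooth muscle cells, and Mrps30 at 1.16 in B cells and -0.68 in endothelial cells. In endothelial cells 9 were higher and 8 lower (11.5% and 10.3%, against 25.9% and 23.0%), and in fibroblasts 22 and 9 (28.2% and 11.5%, against 31.9% and 27.4%). Most of these shares lay near or below those of all genes, the lower genes in B cells and the higher ones in smooth muscle cells being above.

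The comparisons between conditions set AS against the library labelled Healthy, and each MTZ library against AS. The library labelled Healthy also differed from AS in its Apoe level, as given above. Diet and whatever goes with Apoe cannot be told apart in that comparison. With 1 library per condition no test is possible, and the intervals given are 95% intervals that cover counting error only. Over all kept cells the library labelled Healthy had an RP share of 20.2%, AS 11.2%, MTZ-treated 14.8% and MTZ-preventive 16.6%. The log2 ratio of shares was -0.85 for AS against the library labelled Healthy (-0.85 to -0.84), 0.40 for MTZ-treated against AS (0.39 to 0.40) and 0.56 for MTZ-preventive against AS (0.56 to 0.57). The AS library is on one side of all 3 comparisons, which are therefore not independent.

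The kept cells of the libraries also differed in how many lymphocytes they included. Barcodes that were not kept are not counted in these values. B-gated and T-gated cells made up 26.6% and 17.5% of kept cells under the label Healthy, 0.648% and 0.139% under AS, 0.927% and 2.12% under MTZ-treated, and 6.55% and 6.35% under MTZ-preventive. Without B-gated and T-gated cells, but with ungated cells, AS over the library labelled Healthy came to -0.22 on the log2 scale. With the classes present in both libraries weighted as in the library labelled Healthy, it was 0.027, opposite in sign to the ratio over all cells. For MTZ-treated and MTZ-preventive against AS the weighted log2 ratios were both 0.24, and those without B-gated and T-gated cells 0.38 and 0.41. Ungated cells made up 18.2%, 39.7%, 26.1% and 30.9% of kept cells in the libraries labelled Healthy, AS, MTZ-treated and MTZ-preventive. Their RP shares were 17.2%, 10.6%, 14.6% and 15.9% in the same order. The upper quartiles of ungated cells were 23.5%, 11.7%, 16.1% and 18.1%. How many lymphocytes were left among the ungated cells was not tested.

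Within classes AS and the library labelled Healthy lay close together, with log2 ratios of -0.07 (-0.08 to -0.06) in endothelial cells, 0.05 (0.05 to 0.06) in fibroblasts and 0.06 (0.04 to 0.07) in smooth muscle cells. The fibroblast and smooth muscle ratios changed sign with the cells taken: among cells of at most 2000 UMIs they were -0.38 and -0.42, and with looser cell limits -0.28 and -0.19. With called doublets kept the fibroblast ratio was -0.0078. The cell medians also put AS below the library labelled Healthy in fibroblasts, at 10.6% against 13.1%.

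MTZ-treated was above AS in each class with enough cells in both, at 0.39 in endothelial cells, 0.20 in fibroblasts, 0.19 in smooth muscle cells and 0.46 in macrophages on the log2 scale. MTZ-preventive was above AS by 0.18 in endothelial cells, 0.34 in fibroblasts, 0.10 in smooth muscle cells and 0.60 in cells with adipocyte markers. These signs held among cells of at most 2000 UMIs, with at least 4 markers, with doublets kept and with looser limits. The smooth muscle ratio of MTZ-preventive to AS ranged from 0.03 to 0.33, and some depth bins, given below, had the opposite order.

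The share moved with the depth of a cell, and not in the same way in each library. In fibroblasts of AS it was 10.4% in cells of at most 1500 UMIs and 16.7% in the 29 cells over 5000, while in the library labelled Healthy it was 14.0% and 12.1%. In smooth muscle cells of the library labelled Healthy it was 13.5% and 8.79% in the same bins. Endothelial cells of that library were at 12.8% in the lower bin, so smooth muscle cells were not the lowest wall class there. AS was above an MTZ library in some bins. In fibroblasts over 5000 UMIs it was at 16.7% and MTZ-treated at 14.7%. In endothelial cells over 1500 and up to 2500 UMIs it was at 13.3% and MTZ-preventive at 12.8%. In smooth muscle cells over 2500 and up to 5000 UMIs these were at 10.9% and 10.6%. Every other bin value of an MTZ library with an AS value beside it was above AS. The part of depth in the differences between libraries was not tested further.

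**Figure D4:**
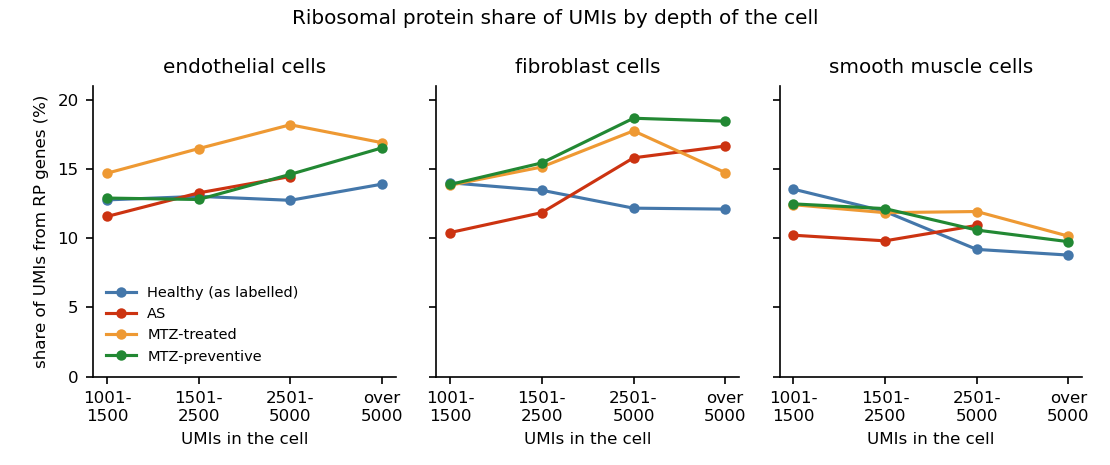
RP share of UMIs in percent (y axis) in cells binned by UMIs (x axis, bins of at least 20 cells) for endothelial cells, fibroblasts and smooth muscle cells, with 1 line per library. In fibroblasts the AS line runs from 10.4% to 16.7% and crosses the line of the library labelled Healthy, which runs from 14.0% to 12.1%.

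Single members spread around the module. Over all cells, of the 76 members at 50 CPM or more in either library, 59 were more than 1.5-fold lower and 1 higher in AS than in the library labelled Healthy, where 24% of 3246 genes were lower and 23.2% higher. The median member was at a log2 ratio of -0.81 and the median gene at 0.03. Rpl12 was lowest (-1.87, 1082 CPM in the library labelled Healthy and 295 CPM in AS), and Rps7 (-1.49), Rps10 (-1.42) and Rps15a (-1.38) were also among the lowest 5. Rps27l was the one higher (1.09, 157 and 335 CPM), and Rpl41 (-0.15), Rpl36al (-0.24) and Rpl36 (-0.25) were also among the highest 5, so members high in lymphocytes and the paralog low in them stood at the ends.

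For MTZ-treated against AS, 2 members were past 1.5-fold higher and 0 lower over all cells, against 15.8% and 11.7% of 3008 genes. They were Rps4x (0.68), encoded on the X chromosome, and Rpl15 (0.60), followed by Rps3 (0.58), Rps3a1 (0.58) and Rps24 (0.56). Rps28 (0.03), Rpl36 (0.05), Rps15 (0.09), Rpl21 (0.10) and Rpl17 (0.12) were lowest. All 76 members measured had a ratio above 0, with a median of 0.34 where the median gene was at 0.15.

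For MTZ-preventive against AS, 39 members were past 1.5-fold higher and 0 lower over all cells, against 11.4% and 10.2% of 2969 genes, with medians of 0.61 and 0.03. Rpl12 (1.37), Rps12 (1.15), Rpl14 (1.11) and Rps7 (1.06) were among the highest 5. Rps27l (-0.37), Rps28 (-0.28), Rpl37 (-0.18), Rpl41 (-0.16) and Rpl38 (-0.12) were lowest.

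In the counts past 1.5-fold, members and all genes were not matched for level, so their shares are not like for like. In fibroblasts, for MTZ-treated against AS, the log2 ratios had an SD of 0.16 for members and 0.63 for all genes. Within classes the counts past 1.5-fold were small for AS against the library labelled Healthy. Of 77 members in endothelial cells 6 were lower and 0 higher (18.5% and 9.47% of genes), of 76 in fibroblasts 2 lower and 1 higher (15.9% and 11.2%), and of 76 in smooth muscle cells 3 lower and 2 higher (23.0% and 14.2%). For MTZ-treated against AS, 5 of 76 were higher in endothelial cells (12.6% of genes), 0 in fibroblasts (9.82%), 0 in smooth muscle cells (18.9%) and 23 of 77 in macrophages (18.6%), and none was lower (12.9%, 8.61%, 13.9% and 24.8% of genes). For MTZ-preventive against AS, 8 of 77 were higher in endothelial cells (13.2% of genes), 17 of 76 in fibroblasts (9.08%), 7 of 76 in smooth muscle cells (17.7%) and 41 of 77 in cells with adipocyte markers (16.2%), and 1, 0, 4 and 0 were lower (8.15%, 8.16%, 10.9% and 17.0%).

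A few members stood apart from the rest in several classes at once. Against the median member of the same class, Rps12, of the head of the small subunit, was lower in AS than in the library labelled Healthy by more than 1.5-fold in endothelial cells, fibroblasts and smooth muscle cells. Its level was 1474 and 850 CPM in endothelial cells, 1267 and 821 CPM in fibroblasts and 973 and 548 CPM in smooth muscle cells of the library labelled Healthy and AS. In MTZ-treated it was at 818, 815 and 547 CPM, and in MTZ-preventive it was at 1524, 1757 and 977 CPM.

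Rpl12 had the same order. It was at 483, 292, 329 and 541 CPM in endothelial cells, at 530, 386, 376 and 688 CPM in fibroblasts and at 438, 261, 261 and 468 CPM in smooth muscle cells of the libraries labelled Healthy, AS, MTZ-treated and MTZ-preventive. The library labelled Healthy and MTZ-preventive were thus high and AS and MTZ-treated low in all 3 classes. The lymphocytes, which had no AS value, gave 2195, 842 and 2067 CPM in T cells and 1402, 757 and 1384 CPM in B cells for the libraries labelled Healthy, MTZ-treated and MTZ-preventive, with MTZ-treated again lowest.

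Rps28, a small protein of the small subunit, went the other way. It was at 1422, 1903, 2021 and 1256 CPM in endothelial cells, 1535, 2026, 1953 and 1461 CPM in fibroblasts and 914, 1528, 1217 and 793 CPM in smooth muscle cells, in the same order of libraries. For MTZ-preventive against AS, Rps28 and Rpl38 were lower and Rps12 higher than the median member by more than 1.5-fold in 4 of 4 classes, and Rpl12 (higher), Rpl37 and Rpl37a (both lower) in 3 of 4.

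To describe this order for all members, the share of each member in the RP UMIs was taken in endothelial cells, fibroblasts and smooth muscle cells, a description chosen after these values were seen. For 35 of 76 members (46.1%) the 4 libraries split in all 3 classes into the library labelled Healthy with MTZ-preventive on one side and AS with MTZ-treated on the other. In 21 of them, among them Rpl12 and Rps12, the first pair was higher, and in 14, among them Rps28 and Rpl37, the second. Splits by the other 2 pairings were seen for 11 and 2 members, and 28 differed between classes.

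The split was not confined to RP genes, and it was not the most frequent one on another scale. In CPM, 20 of 76 members (26.3%) and 432 of 2446 genes (17.7%) split in this way. More members, 27 of 76 (35.5%), split in CPM into the library labelled Healthy with AS and MTZ-treated with MTZ-preventive, against 74 of 2446 genes (3.03%). Over all kept cells AS and MTZ-treated were the libraries with the lower median UMIs per cell (1299 and 1539, against 1930 and 1654). Within classes, again over kept cells, this held in endothelial cells only. In fibroblasts the medians were 1505, 1299, 1596 and 1647 UMIs and in smooth muscle cells 1667, 1248, 1686 and 1650 UMIs, in the order labelled Healthy, AS, MTZ-treated and MTZ-preventive. Barcodes with 1000 UMIs or fewer, which were not kept, followed the split. They were 4507 of 6908 deposited barcodes in AS and 13688 of 20938 in MTZ-treated. In the library labelled Healthy they were 9323 of 21857, and in MTZ-preventive 6979 of 23963. AS and MTZ-treated also had the higher share of hemoglobin UMIs over all cells (0.0818% and 0.0107%, against 0.000792% and 0.00203%). B-gated and T-gated cells were rarer there too, at 0.648% and 0.139% of kept cells in AS and 0.927% and 2.12% in MTZ-treated. The library labelled Healthy was at 26.6% and 17.5%, and MTZ-preventive at 6.55% and 6.35%. The parts of depth, hemoglobin and lymphocyte content in the split were not tested. The condition of a library cannot be told apart from its preparation.

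**Figure D5:**
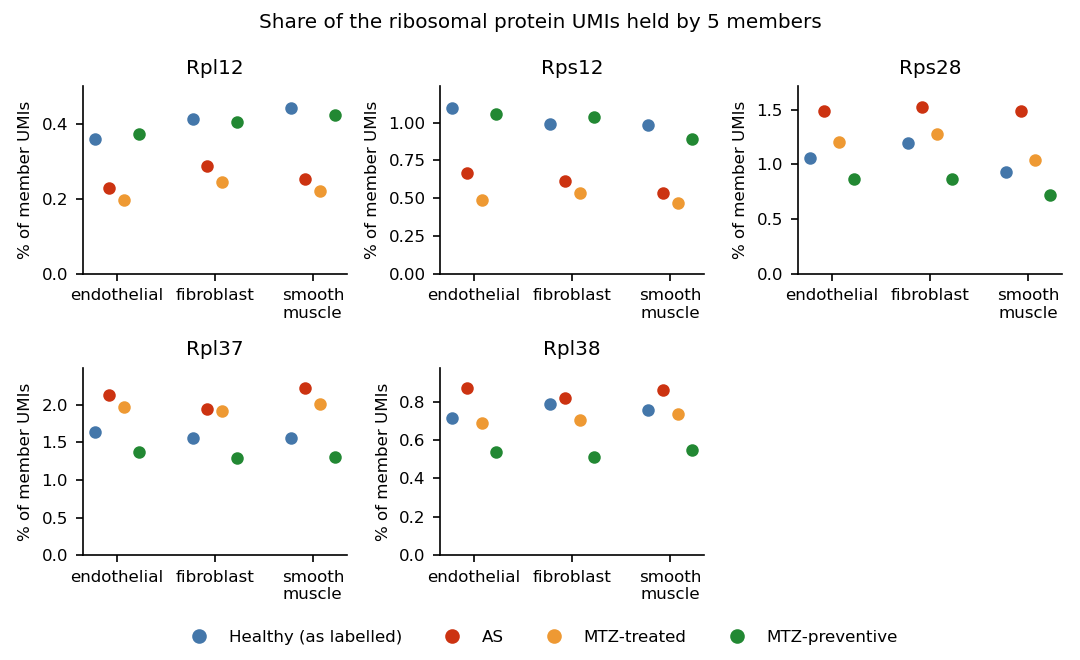
Share of the RP UMIs held by 5 members in percent (y axis, from 0 in each panel) in endothelial cells, fibroblasts and smooth muscle cells (x axis), with 1 point per library. The points of AS and MTZ-treated lie below those of the other 2 libraries for Rpl12 and Rps12, and above them for Rps28 and Rpl37, while for Rpl38 MTZ-preventive is lowest.

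The balance of the subunits differed little. Large over small subunit UMIs over all cells was 0.997 for the library labelled Healthy, 1.11 for AS, 1.07 for MTZ-treated and 1.03 for MTZ-preventive. Within classes it was 0.941 to 0.955 in T cells, 0.970 to 0.976 in B cells and 1.05 to 1.14 in the 3 wall classes, so T and B cells stood below the wall classes in each library where both were measured.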

How the data were processed

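Single-cell suspensions of aorta, 1 library per group from 6 pooled aortas, were read from the transcript's 5′ end. The authors deposited raw UMI counts per gene and barcode from Cell Ranger 5.0.0 (file header), and the submitters' processing notes name STAR and mm10. Receptor sequence files were not used here.

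Barcodes were kept with over 200 genes, over 1000 UMIs, a log10 gene to log10 UMI ratio over 0.7, under 10% mitochondrial and under 5% hemoglobin UMIs. Doublets were called by simulating 2 per cell (2000 variable genes, 30 components), and the top 0.8% per 1000 cells were removed. Classes were gated on markers as described above. Sums per class and library (at least 20 cells, classes in at least 3 libraries) were tested with edgeR 4.0.16 in R 4.3.3 (filterByExpr, TMM factors, library block), with DESeq2 1.42.0 as an alternative. A block by library is the pairing here, since classes of 1 library come from the same mice; classes of 1 library are not separate cultures, and the p-values measure the spread between these 18 sums. Between libraries, log2 ratios of RP share were given with exact binomial intervals (Clopper-Pearson, 95%). Log2 ratios of single genes are of CPM with a pseudocount of 1 and are given without intervals. A count of 0 was read as up to 3 counts. The intervals and this limit cover counting error only. Python 3.11.15 was used.

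On simulated data with 13174 genes the T cell contrast recovered 96% of genes raised 2-fold and 44% of those raised 1.5-fold. It recovered 92% of genes lowered 2-fold and 32% of those lowered 1.5-fold, with 0.0385% of unchanged genes called. All sums were drawn from the same mean profile, and only 50 genes per fold were changed, in T cells. In the data 28.3% of genes were higher and 27.8% lower in T cells, so these rates may not hold there.

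The members and gene lists were chosen with earlier results of these data known. Named are the paralogs with their partners, the 5 highest and 5 lowest called members per class contrast, the 5 highest and lowest ratios per library comparison, members over 1.5-fold from the median member in at least 3 classes, and the genes with other symbols; some genes this rule names are not reported here. For the gene lists, up to 3 genes at either end were named. Alternatives were other cell limits, gates, scalings, filters and libraries left out.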

Additional observations from a re-analysis of the deposited data

Results flagged for a closer look

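The RP share of pooled UMIs within a class went in opposite directions between classes for AS against the library labelled Healthy, but not on every measure. The log2 ratio was -0.071 in endothelial cells, while it was 0.055 in fibroblasts and 0.056 in smooth muscle cells. Each of these intervals excluded 0 by counting error, but with 1 library per condition the difference between the classes was not tested. The fibroblast and smooth muscle ratios turned negative with looser limits (-0.28 and -0.19) and in cells of at most 2000 UMIs (-0.38 and -0.42). The cell medians put AS below the library labelled Healthy in all 3 classes, at 12.4% against 12.7% in endothelial cells, 10.6% against 13.1% in fibroblasts and 10.2% against 10.8% in smooth muscle cells.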

How the results depend on the processing

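Over all cells, the log2 ratios of RP share (-0.85 for AS over the library labelled Healthy, then 0.40 and 0.56 for MTZ-treated and MTZ-preventive over AS) kept their signs under all alternatives but one. They were -0.92, 0.49 and 0.61 in cells of at most 2000 UMIs, -0.85, 0.43 and 0.58 over all deposited barcodes, -0.80, 0.39 and 0.50 with doublets kept, -1.08, 0.42 and 0.66 with looser limits, and -0.96, 0.47 and 0.62 as means over cells. Without mitochondrial, hemoglobin and receptor genes the first 2 were -0.83 and 0.37. Without B-gated and T-gated cells but with ungated cells, an alternative chosen after seeing the data, they were -0.22, 0.38 and 0.41. With classes weighted as in the library labelled Healthy they were 0.027, 0.24 and 0.24, so the first changed sign. The classes entering that mean lack lymphocytes by construction, since AS has too few. Within classes, AS against the library labelled Healthy changed sign in fibroblasts with doublets kept (-0.0078), looser limits (-0.28) and cells of at most 2000 UMIs (-0.38), and in smooth muscle cells with looser limits (-0.19) and cells of at most 2000 UMIs (-0.42). In the class contrasts no called member changed sign. Lower members in fibroblasts numbered 46, and 21 with at least 4 markers. Members called against the majority numbered 2 in B cells, 2 in fibroblasts and 2 in smooth muscle cells both with total counts alone and with DESeq2, and 2 in smooth muscle cells with doublets kept, in place of 1. With 1 library left out at a time the higher members ranged from 58 to 73 in B cells, 72 to 75 in T cells, 1 to 2 in endothelial cells and 1 to 1 in fibroblasts and smooth muscle cells, and the lower ones from 1 to 1 in B cells, 1 to 2 in T cells, 33 to 73 in endothelial cells, 12 to 69 in fibroblasts and 68 to 75 in smooth muscle cells. Without the replicate block by library, 59 members were lower in endothelial cells (69 with it) and 33 in fibroblasts (46 with it), both within 1.5 times. With TMM factors 1 member was past 1.5-fold higher in MTZ-treated than in AS, in place of 2. Where the cause of a change is not given, the cause was not tested. The AS library, with 2160 cells and the fewest UMIs, limits each comparison.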

Other observations

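The barcodes that were not kept differed from the kept cells in RP share. Called doublets had a share of 16.4% in the library labelled Healthy and 13.6% in MTZ-preventive, below the 20.2% and 16.6% of the kept cells, and 13.6% against 14.8% in MTZ-treated. In AS they were slightly above, at 11.5% (39 doublets) against 11.2%. Barcodes with at least 10% mitochondrial UMIs had 8.96% in the library labelled Healthy and 5.81% in AS.

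The 5 symbols left out for "-ps" held 346360 UMIs in the kept cells. One of them, Rpl9-ps6, had a mean of 3704 CPM over the 18 sums, and the member Rpl9 a mean of 848 CPM. How reads were divided between these copies was not tested.

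The genes of the mitochondrial ribosome and the RP genes can be set side by side within classes. For MTZ-treated against AS in smooth muscle cells, 20 of 50 measured genes of the mitochondrial ribosome were past 1.5-fold higher and 1 lower, where 18.9% of all genes were higher and 13.9% lower, while 0 of 76 RP genes were past 1.5-fold in either direction. In macrophages of the same comparison 13 of 47 were higher and 3 lower, against 18.6% and 24.8% of all genes. Their median log2 ratio was only 0.08, where the median gene was at -0.04. The macrophage sums come from 58 cells in AS and 103 in MTZ-treated. For MTZ-preventive against AS in endothelial cells, 0 of 43 were higher and 8 lower, against 13.2% and 8.15%.

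The host genes of small nucleolar RNAs were higher in macrophages of MTZ-treated than of AS, by a median log2 ratio of 1.14. Past 1.5-fold higher were 6 of the 6 measured genes, against 18.6% of all genes. These values come from 58 cells in AS and 103 in MTZ-treated.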
